A study of Mus musculus with 64 samples.

Results

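The interferon-inducible GTPases of the mouse form the guanylate-binding protein (GBP) and immunity-related GTPase (IRG) families, which gather on the vacuoles of intracellular pathogens and break them open. The GBPs are large GTPases that assemble into coats. Among the IRGs, Irgm1, Irgm2 and Igtp are regulators that hold the others inactive on the cell's own membranes, whereas Iigp1, Tgtp1 and Tgtp2 are effectors that load onto the vacuole. Interferon gamma induces both families through its receptor and the kinases JAK1 and JAK2, and the response is known to act on a gamma-activated sequence (GAS) in promoters. Type I interferons act through a complex that holds IRF9 on the interferon-stimulated response element (ISRE), and many GTPase genes respond to both kinds of interferon. The 10 genes described here are Gbp2, Gbp3, Gbp5, Gbp7, Irgm1, Irgm2, Igtp, Iigp1, Tgtp1 and Tgtp2. They were chosen by name out of 52636 genes in the count table, and no measured value entered the rule. Earlier results of these data were known, however, when they were chosen. All 10 passed the filter on low counts.

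RNA was taken from 2 depots, brown fat (BAT) and the white fat of the epididymis (eWAT), of male mice aged 2 to 4 months, and was sequenced at zeitgeber time (ZT) 6, 10, 18 and 22, where ZT 0 is lights on. FANKO mice carry a floxed Nampt allele (Nampt tm1Jtree, loxP sites around exon 3) and Cre under the Adiponectin promoter, which is active in adipocytes, so other cells of the depots keep the gene. Control mice (WT) were littermates without Cre. Each of the 16 groups held 4 samples, which gave 16 samples per depot and genotype and 64 in all. The comparisons addressed where and when loss of NAMPT, the enzyme that recycles nicotinamide into NAD+, went with a change in these genes.

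Total counts ranged from 6117343 to 30544847 per sample (median 15826651). The share of counts on mitochondrial genes had medians of 24.6% in WT and 14.7% in FANKO BAT, and of 6.55% in WT and 10.7% in FANKO eWAT. With those genes removed all 10 GTPases were still called in BAT, in eWAT and in the difference between depots. Nampt itself, the targeted gene, had a median of 702 counts per 1000000 (CPM) in WT BAT and 143 CPM in FANKO BAT, with no overlap. In eWAT its medians were 149 CPM and 114 CPM and the ranges overlapped. Whole-gene counts include exons outside the deleted one and Nampt from cells without Cre. Scaling by library size alone, in place of TMM factors, moved the median log2 fold change of all genes from 9.7e-05 to 0.58 in BAT, from -0.025 to -0.27 in eWAT, and from -0.11 to -0.86 between the WT depots. It also turned the split of called genes from 6709 higher and 6861 lower to 12785 and 2274 in BAT, and from 5585 and 4610 to 2389 and 8592 in eWAT. Fold changes below are on the TMM scale and move with such a shift. Over 16 ways of processing, the log2 fold change of Gbp7 ran from 2.68 to 3.29 in BAT and from 0.38 to 0.70 in eWAT. The difference of the Gbp2 effect between depots ran from 1.90 to 2.93. The standard errors below do not cover these ranges.

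All 10 genes are protein coding in the GENCODE annotation, and 9 of them lie in clusters of the GRCm38 genome. The GBP genes lie within one stretch of the plus strand of chromosome 3, with a further family gene, Gbp2b, between Gbp3 and Gbp2: Gbp5 at chr3:142493978-142522344, Gbp7 at chr3:142530342-142550149, Gbp3 at chr3:142560026-142573209 and Gbp2 at chr3:142620602-142638008. Irgm1 (chr11:48861968-48871683), Tgtp1 (chr11:48985327-48994172) and Tgtp2 (chr11:49057194-49064206) lie on the minus strand of chromosome 11. Igtp (chr11:58199556-58207591) and Irgm2 (chr11:58199618-58222782) overlap farther along that chromosome on the plus strand and share 162 bases of exon. Tgtp1 and Tgtp2 are near copies: 81.7% of the 38-base words in the Tgtp1 transcripts also occur in those of Tgtp2, and 88.0% the other way round. Reads from that pair may have been split, lost or shared between these genes, so their separate levels are uncertain. The same holds to a lesser degree for Igtp and Irgm2, where 14.2% of the Igtp words occur in Irgm2, and for Gbp7, which shares 10.7% of its words with the overlapping gene Gm43802. For the other 5 members between 1.41% and 4.86% of words occurred in any other gene.

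The promoters of these genes carry short matches to both interferon elements, and the stretch around the matches nearest the start is shown here because elements of these kinds are known to carry interferon responses. RefSeq promoters (GRCm38.p6, 250 bases before the RefSeq gene start) were found for 9 of the 10 members, Gbp3 having 2 of them. Each line gives the gene's own strand, 5′ to 3′, with motif matches in capitals.
Irgm2: ccatTTCCAGGAActGAAACTGAAAgctg
Igtp: ccatTTCTAGGAActGAAACTGAAAgctg
Tgtp1: ccatTTCCAGGAAtcGAAACTGAAAccta
Tgtp2: ccatTTCCAGGAAtcGAAACCGAAAccta
Irgm1: tcaaGAAATAGAAACCGAAActga
Gbp2: ttagTTTCACTTTCactg
Gbp3: acagTTTCAGTTTCTATTTCccag
Gbp7: gcagTTTCAGTTTCagtt
Gbp5: ttatTTCTCAGAAccaa
The windows lie at chr11:58214898-58214926 (Irgm2, plus strand), chr11:58199507-58199535 (Igtp, plus), chr11:48992310-48992338 (Tgtp1, minus), chr11:49064269-49064297 (Tgtp2, minus), chr11:48871431-48871454 (Irgm1, minus), chr3:142620600-142620617 (Gbp2, plus), chr3:142559995-142560018 (Gbp3, plus), chr3:142530279-142530296 (Gbp7, plus) and chr3:142496878-142496894 (Gbp5, plus). The Gbp2 and Irgm1 windows overlap an annotated exon of the same gene, and the other 7 overlap no annotated exon. The RefSeq start is not always the GENCODE start. The Irgm2, Gbp5, Tgtp1 and Irgm1 windows lie inside the gene spans given above. No GENCODE transcript of Irgm2 (0 of 3), Gbp7 (0 of 2) or Tgtp2 (0 of 2) held the bases just after the start used.

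The GAS-type motif searched was TTCNNNGAA, which reads alike on both strands, and the ISRE-type motif was GAAANNGAAA, or TTTCNNTTTC on the other strand. A GAS-type match was present in 7.02% and an ISRE-type match in 2.98% of 32841 promoters of this length. Of the 9 members searched, 9 held at least 1 of them. In Irgm2, Igtp, Tgtp1 and Tgtp2 a GAS-type match was followed by an ISRE-type match whose first base lay 11 bases downstream. That arrangement was found in 5 promoters of the whole table (0.0152%), the fifth being that of Gm12185, which overlaps Tgtp1 in the annotation. The order and spacing searched for are those of these members, so the share is not the rate of an arrangement set beforehand. These 4 members are related by sequence and are not independent cases. In Gbp3 and Irgm1 the 2 ISRE-type matches overlap each other. Gbp5 and Gbp7 each held 2 GAS-type matches and 1 ISRE-type match, farther apart. A match is a description of the letters, not a bound site.

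**Figure D1:**
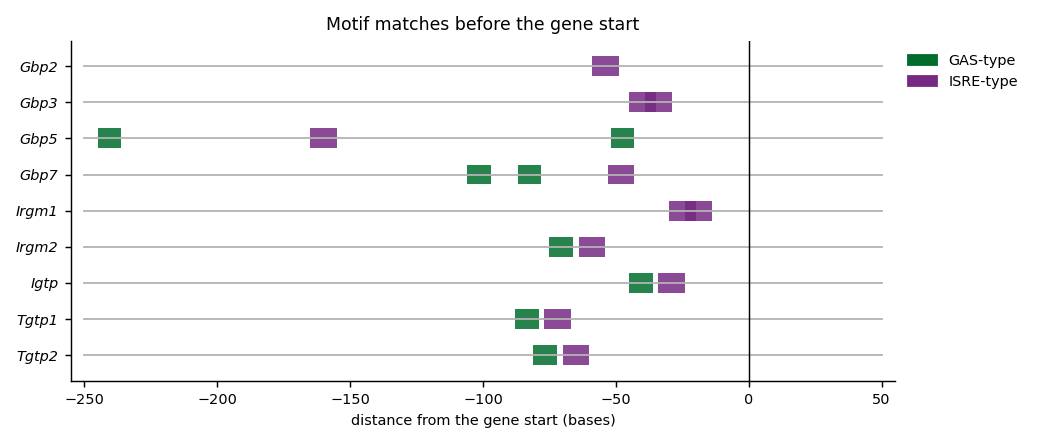
Positions of GAS-type (green) and ISRE-type (purple) matches in the 250 bases before the RefSeq gene start of 9 members. The first listed promoter of each is drawn (x axis: distance from that start in bases, 0 at the vertical line). The paired matches of Irgm2, Igtp, Tgtp1 and Tgtp2 run from -88 to -25 at most, 11 bases from first base to first base.

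In BAT every GTPase gene was higher in FANKO than in WT mice, and for each of the 10 genes the lowest of the 16 FANKO samples lay above the highest of the 16 WT samples. Such a separation was seen for 12.5% of the 20249 genes tested. Fold changes ranged from 6.49 (Gbp7) to 29.5 (Tgtp1), with a median log2 fold change of 3.58 (12.0-fold). All 10 genes passed the test of the mean level (edgeR quasi-likelihood test, Benjamini-Hochberg adjusted p over all genes from 1.73e-36 to 8.55e-28), against 33.1% of all genes that were called higher at an adjusted p below 0.01. By size of increase the 10 genes ranked between 545 (Tgtp1) and 1601 (Gbp7) of 20249.

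Among the coat-forming GBPs, Gbp2 ranged from 24.4 to 57.3 CPM in WT BAT (median 36.2, n = 16) and from 200 to 479 CPM in FANKO BAT (median 282). The log2 fold change of Gbp2 was 3.03 ± 0.13 (SE). Gbp3 had medians of 21.1 CPM in WT and 253 CPM in FANKO BAT, a log2 fold change of 3.60 ± 0.15. Neither gene had a sample of one genotype within the range of the other. Gbp5, which is known for promoting inflammasome assembly, was the GBP with the lowest level, at 3.05 to 12.4 CPM in WT BAT and 54.5 to 105 CPM in FANKO BAT. Its log2 fold change was 3.52 ± 0.14. Gbp7 had the smallest increase of the 10, from a median of 28.9 CPM to one of 188 CPM (log2 fold change 2.70 ± 0.10).

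Of the regulatory IRGs, Irgm1, which is known for its part in autophagy, ranged from 12.6 to 22.8 CPM in WT BAT (median 18.1) and from 125 to 413 CPM in FANKO BAT (median 207), a log2 fold change of 3.57 ± 0.13. Irgm2 rose from a median of 18.5 CPM to 163 CPM (log2 fold change 3.13 ± 0.13). Igtp rose more, from 8.81 to 39.3 CPM in WT BAT (median 14.3) to between 142 and 562 CPM in FANKO BAT (median 304). Its log2 fold change of 4.13 ± 0.18 was the largest among the regulators.

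By fitted log2 fold change the effector IRGs had the 3 largest increases of the 10, but the order was not tested. By the ratio of medians in BAT, the regulator Igtp (21.2) lay above Tgtp2 (17.7). Iigp1 lies away from the other members, on chromosome 18 (chr18:60376027-60392634, plus strand). Iigp1 was the most abundant member by CPM in FANKO BAT, at 177 to 847 CPM (median 485), against 10.8 to 75.5 CPM in WT BAT (median 19.0). The WT maximum came from replicate 4 of ZT 10, in which Iigp1 stood at 75.5 CPM beside 17.0 to 18.5 CPM in the other 3 samples of its group, and the next highest WT BAT sample had 37.1 CPM. The log2 fold change of Iigp1 was 4.30 ± 0.20. Tgtp1 rose from a median of 1.41 CPM (6 to 43 counts per sample) to 35.9 CPM, and Tgtp2 from 2.90 CPM to 51.4 CPM, with log2 fold changes of 4.88 ± 0.17 and 4.31 ± 0.13. No sample of one genotype reached the range of the other for either gene.

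**Figure D2:**
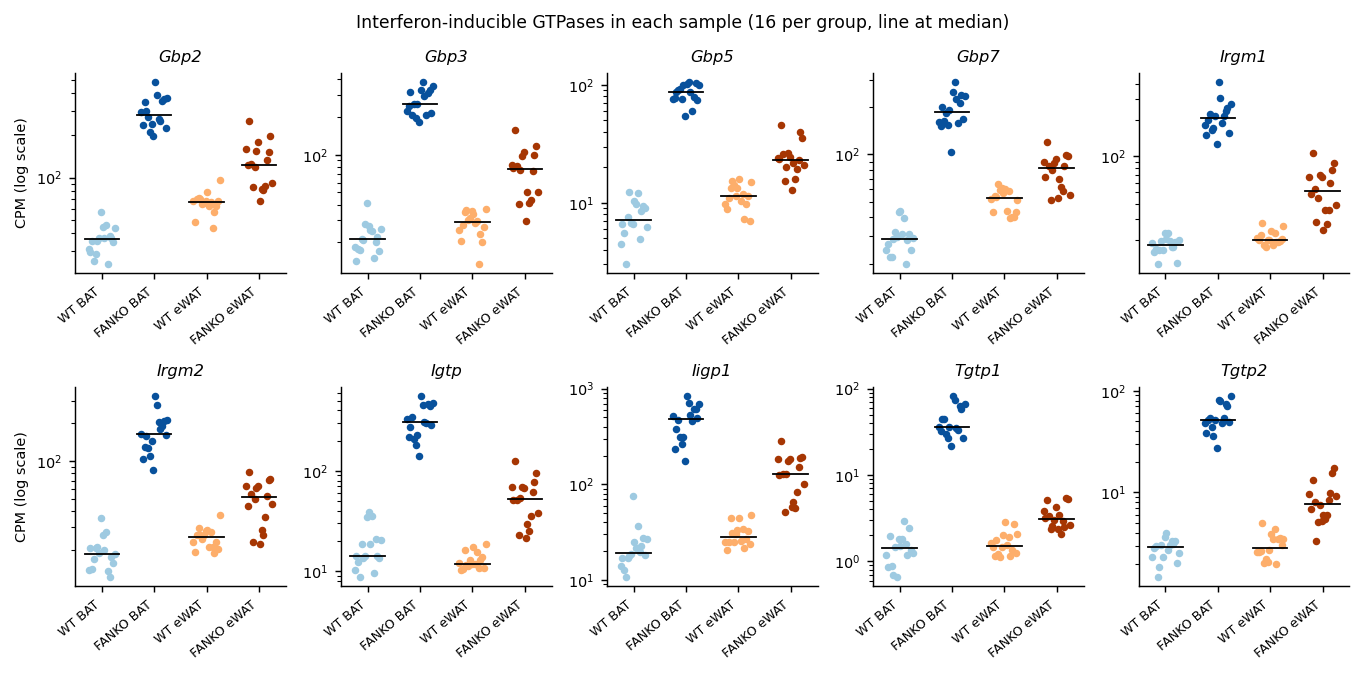
CPM of the 10 GTPases (log axis) in each of 64 samples, 16 per depot and genotype, with a line at the median. FANKO BAT (dark blue) lies apart from WT BAT (light blue) in every panel, whereas WT eWAT (light orange) and FANKO eWAT (dark orange) overlap in 8 of 10 panels.

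In eWAT the same 10 genes were also higher in FANKO mice, by a smaller amount. The fold changes ran from 1.53 (Gbp7) to 4.15 (Iigp1), with a median log2 fold change of 1.19 (2.29-fold). All 10 passed (edgeR, adjusted p from 2.58e-16 to 5.63e-07), against 27.6% of all genes called higher. Every FANKO sample lay above every WT sample for 2 genes, Igtp and Iigp1, a separation seen for 4.57% of all genes tested.

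Iigp1 ranged from 20.6 to 47.6 CPM in WT eWAT (median 28.4) and from 51.7 to 284 CPM in FANKO eWAT (median 129), a log2 fold change of 2.05 ± 0.18. Igtp went from a median of 11.9 CPM (range 10.3 to 18.8) to 52.7 CPM (range 21.6 to 124), a log2 fold change of 2.03 ± 0.16. These were the members with the largest increase in eWAT. The other regulators followed at 1.33 ± 0.12 for Irgm1 and 0.94 ± 0.13 for Irgm2. Among the GBPs, Gbp3 had the largest log2 fold change, 1.38 ± 0.13, and Gbp7 the smallest, 0.61 ± 0.09. Gbp2 went from a median of 67.2 CPM to 124 CPM and its groups overlapped between 67.9 and 96.9 CPM. Tgtp1, the member with the largest increase in BAT, had a log2 fold change of 1.02 ± 0.17 in eWAT (medians 1.499 and 3.13 CPM), and Tgtp2 one of 1.42 ± 0.13 (medians 2.87 and 7.75 CPM).

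The increase was larger in BAT than in eWAT for all 10 genes when the difference itself was tested (edgeR, adjusted p from 1.85e-21 to 1.15e-11), against 32.2% of all genes with a genotype effect more positive in BAT. For 8 of the 10 genes the difference lay close together, between 2.08 (Gbp7) and 2.45 (Gbp5) on the log2 scale, which is 4.24-fold to 5.48-fold. Tgtp2 (2.89 ± 0.18) and Tgtp1 (3.86 ± 0.24) lay above the rest. Leaving out any 1 replicate number, the WT BAT sample of ZT 10 named above, or using DESeq2, limma-voom or library size alone left all 10 called in BAT, in eWAT and in the difference.

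**Figure D3:**
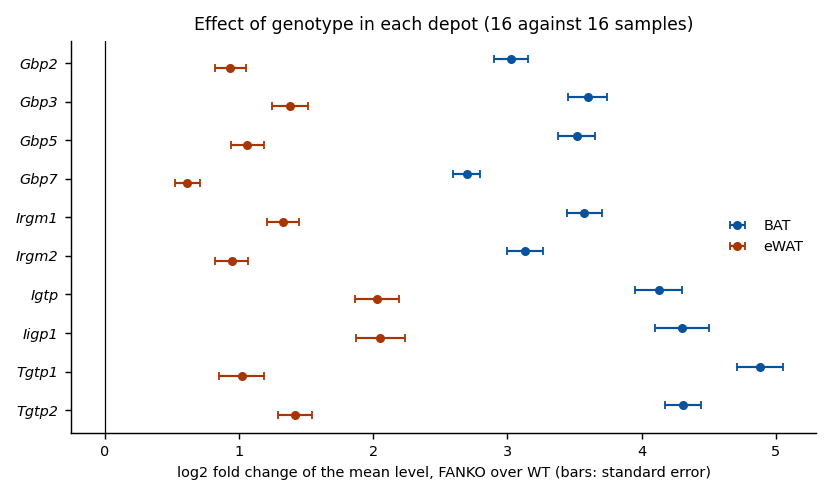
Log2 fold change of the mean level, FANKO over WT, for the 10 GTPases in BAT (blue) and eWAT (orange), 16 against 16 samples; bars are standard errors. BAT values run from 2.70 to 4.88 and eWAT values from 0.61 to 2.05, and the intervals of the 2 depots are apart for every gene.

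With the effects of genotype and depot together, the members ran in the order FANKO BAT, FANKO eWAT, then the WT depots. FANKO BAT exceeded FANKO eWAT for all 10 genes (edgeR, adjusted p at most 6.51e-14, log2 difference 1.23 for Gbp2 to 3.67 for Tgtp1), against 28.1% of all genes. The WT depots, at the bottom, were closer to each other. Gbp2, Gbp5, Gbp7 and Irgm2 were lower in WT BAT than in WT eWAT, by log2 differences of -0.87 ± 0.12, -0.63 ± 0.14, -0.79 ± 0.10 and -0.39 ± 0.13, and 41.1% of all genes were called lower in WT BAT. Irgm2 lost the call without replicate 1, 3 or 4. For the other 6 the difference did not pass, with log2 values from -0.41 ± 0.18 (Iigp1) to 0.46 ± 0.17 (Igtp, adjusted p = 0.011). Without the WT BAT sample of ZT 10 that stood apart, Iigp1 and Gbp3 were also called lower in WT BAT, at -0.64 and -0.43.

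Levels of different genes can be compared per length of annotated exon. On the scale of CPM per kilobase, Gbp2 was the highest member in WT BAT (14.6), WT eWAT (26.4) and FANKO eWAT (52.0). In FANKO BAT the highest was Igtp (161 CPM per kilobase), ahead of Gbp2 (119). Tgtp1 was lowest in 3 of the 4 depots and genotypes, at 0.46 in WT BAT and 0.52 in WT eWAT. In FANKO BAT Tgtp1 reached 13.8 CPM per kilobase, about the level of Gbp5 (12.9).

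The effect of genotype on these genes was present in BAT at every time of day and in eWAT was smallest at ZT 18. In BAT all 10 genes were higher in FANKO at ZT 6, 10, 18 and 22 (edgeR, largest adjusted p 1.54e-10), where 24.4%, 23.3%, 21.5% and 22.6% of all genes were called higher. Over ZT 6, 10, 18 and 22 the median log2 fold change of the members in BAT was 3.99, 3.13, 3.76 and 3.75. In eWAT all 10 were called at ZT 6 (16.9% of all genes) and at ZT 22 (12.6%), with median log2 fold changes of 1.52 and 1.57. At ZT 10 the call held for 7 (16% of all genes), the exceptions being Gbp5, Gbp7 and Tgtp1, and it held for 4 without replicate 3 (Gbp3, Irgm1, Igtp and Iigp1). Without replicate 3 the number of all genes called higher there fell from 3240 to 2107. At ZT 18 only Tgtp2 passed in eWAT (log2 fold change 0.93 ± 0.25, adjusted p = 0.0040), against 8.54% of all genes, and no member passed there without replicate 1, 2 or 4. In those 3 fits the number of all genes called higher fell from 1729 to 1000, 994 and 1051. The median log2 fold change of the members at ZT 18 was 0.59, and Irgm2 had the smallest, 0.20 ± 0.24.

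An exact two-sided permutation test of 4 against 4 samples, which cannot go below p = 0.0286, gave that smallest value in 69 of 80 comparisons of a member at a time point (adjusted p = 0.0331 over the 80). That value arises only where the 2 groups do not overlap. In BAT it did so for 10 of 10 genes at each time point. Of all genes tested, 25.4%, 26.7%, 20.8% and 24.8% had every FANKO BAT sample above every WT one at ZT 6, 10, 18 and 22. In eWAT the smallest value was reached by 10, 7, 4 and 8 genes in that order, those of ZT 18 being Irgm1, Igtp, Iigp1 and Tgtp2. The shares of all genes there were 21.5%, 22.2%, 13.5% and 16.4%. The members vary together, so the 80 comparisons are not separate observations.

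Between ZT 6 and ZT 18 it was the FANKO level that was lower in eWAT, while the summed CPM of the 10 genes in WT eWAT had medians of 245, 267, 250 and 227 at ZT 6, 10, 18 and 22. Igtp in FANKO eWAT stood at 69.3, 51.3, 124 and 51.0 CPM in the 4 samples of ZT 6 and at 21.6, 29.8, 25.2 and 35.6 CPM in those of ZT 18. In WT eWAT, Igtp kept between 10.3 and 18.8 CPM over all 4 time points. All ZT 18 values of FANKO eWAT lay below all ZT 6 values, whereas the WT values at these times overlapped. Irgm1 showed the same arrangement, from 48.4 to 106 CPM at ZT 6 and from 24.3 to 35.6 CPM at ZT 18. Of the 10 members, 9 had their lowest mean in FANKO eWAT at ZT 18, and 8 had their highest at ZT 6. The exception at ZT 18 was Tgtp2, with its lowest at ZT 10. The share of all genes with such an order or separation of time points is not given here. The members vary together within groups (median r 0.74), so these counts are not separate observations. The distance between highest and lowest time-point means ran from 0.49 (Tgtp1) to 1.39 (Iigp1) on the log2 scale in FANKO eWAT (median 1.11), against a median of 0.27 in WT eWAT.

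In FANKO BAT the order of the time points was another one. All 10 members had their lowest mean at ZT 10, and the highest lay at ZT 18 for 6 and at ZT 22 for 4. Irgm2 stood at 128, 110, 144 and 85.2 CPM at ZT 10 and at 330, 278, 204 and 179 CPM at ZT 18, so that these groups did not overlap. Iigp1 averaged 266 ± 63.97 CPM (SD, n = 4) at ZT 10 and 638 ± 173 CPM at ZT 18. The distance between highest and lowest means ranged from 0.18 (Gbp5) to 1.26 (Iigp1) on the log2 scale. In WT BAT, 8 of 10 members had their lowest mean at ZT 6. As in eWAT, no share of all genes stands beside these counts, and they are not separate observations.

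Tested as a 24-hour cosine wave, 6 members were rhythmic in FANKO eWAT (Gbp2, Gbp3, Irgm1, Irgm2, Igtp and Tgtp2; edgeR, adjusted p from 3.10e-05 to 0.0050), against 6.77% of all genes. Iigp1 (adjusted p = 0.0124) and Gbp5 (0.0199) missed the threshold of 0.01. Tgtp2 was the member that kept this call whichever replicate number was left out. The count fell to 1 without replicate 1, to 2 without replicate 2 and to 1 without replicate 3, and it rose without replicate 4. Calls over all genes fell as well, from 1370 to 701, 633, 664 and 1065 without replicates 1, 2, 3 and 4. In FANKO BAT the call was made for Irgm2 and Tgtp2 (2.84% of all genes). It was made for no member without replicate 1, without replicate 2 or with library size alone, and for 1 member, Irgm2, without replicate 4. Calls over all genes in FANKO BAT fell from 575 to 200, 168, 284 and 292 in that order. No member was called in WT BAT (13.9% of all genes) by edgeR or limma-voom, with 4 at an unadjusted p below 0.05 in edgeR, and DESeq2 called Igtp. None was called in WT eWAT (9.38% of all genes) by edgeR, DESeq2 or limma-voom, with 1 at an unadjusted p below 0.05.

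The difference in rhythm between genotypes was called for no member in BAT (2.76% of all genes) or in eWAT (1.15%), by edgeR, DESeq2 or limma-voom. In eWAT 9 of the 10 had an unadjusted p below 0.05 in edgeR, with adjusted p no lower than 0.0938, and in BAT 3 had one. Without replicate 4 the difference in eWAT was called for 5 members (Gbp3, Gbp5, Gbp7, Igtp and Iigp1). A rhythm called in FANKO and not in WT eWAT was therefore not shown to differ between the genotypes with all samples.

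**Figure D4:**
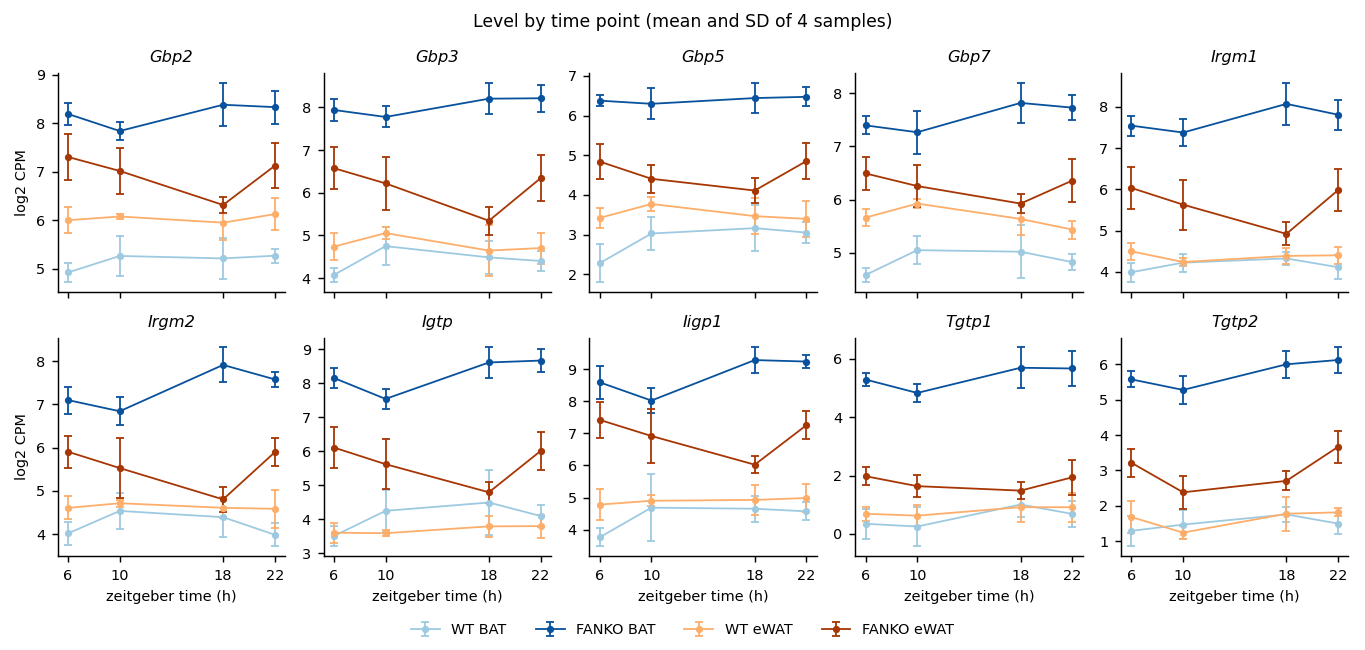
Mean log2 CPM with SD (4 samples per point) of the 10 GTPases at ZT 6, 10, 18 and 22 in each depot and genotype. FANKO eWAT (dark orange) comes closest to WT eWAT (light orange) at ZT 18, and FANKO BAT (dark blue) is lowest at ZT 10 in every panel.

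Most other GTPase genes of these and related families moved with these 10. Of 18 such genes tested, 16 were higher in FANKO BAT (median log2 fold change 3.85, none lower) and 16 in FANKO eWAT (median 0.92, none lower). Several of the 18 are near copies of other genes, with 99.6% of words shared for Gvin1, 87.9% for Gbp10 and 86.7% for 9930111J21Rik1. Others share few, such as Irgq at 1.18%. The 18 are therefore not all separate cases. The shares of all genes called higher, 33.1% in BAT and 27.6% in eWAT, stand beside these and the list counts that follow. Gbp9 had a log2 fold change of 2.52 ± 0.09 in BAT and 0.77 ± 0.09 in eWAT, Gbp4 of 2.26 ± 0.10 and 0.56 ± 0.10, and Ifi47, an effector-type IRG, of 5.22 ± 0.17 and 1.63 ± 0.14. The exceptions in BAT were Irgq and Irgc1, and in eWAT Gbp2b and Irgc1. In FANKO eWAT 11 of the 18 were called rhythmic, against 6.77% of all genes. The count was 2 without replicate 1, 5 without replicate 2 and 0 without replicate 3, where calls over all genes fell from 1370 to 701, 633 and 664. In WT eWAT 2 of the 18 were called (9.38% of all genes). The rhythm difference between genotypes in eWAT was called for none of them (1.15% of all genes).

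Along the interferon gamma pathway, the median change of the components was below that of the GTPases. Of 13 ligand, receptor and signalling genes, 11 were higher and 1 lower in FANKO BAT (median log2 fold change 1.48), and 9 were higher and 1 lower in FANKO eWAT (median 0.30). The ligand gene Ifng had 0 counts in 15 of 16 WT BAT samples and was detected in all 16 FANKO BAT samples, at 0.19 to 1.91 CPM (edgeR, adjusted p = 1.27e-13). In eWAT its medians were 0.044 CPM in WT and 0.189 CPM in FANKO (adjusted p = 0.000271). These levels correspond to few reads per library. The receptor chain gene Ifngr1 was lower in FANKO BAT, with a log2 fold change of -0.32 ± 0.08, while Ifngr2 was higher, at 1.32 ± 0.07. In BAT Jak1 rose by 0.58 ± 0.03 and Jak2 by 0.73 ± 0.05.

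Downstream, Irf1 rose by 1.48 ± 0.07 in BAT and 0.22 ± 0.07 in eWAT, and Irf8, a factor of myeloid cells, by 4.42 ± 0.13 and 0.57 ± 0.11. Socs1, a feedback inhibitor of the JAK kinases, rose by 4.10 ± 0.26 in BAT and 0.74 ± 0.21 in eWAT. Of 24 interferon gamma targets outside the family, 21 were higher in FANKO BAT (median log2 fold change 2.85), and 19 were higher and 1 (Cxcl11) lower in FANKO eWAT (median 0.49). The class I presentation genes B2m (3.04 ± 0.08), H2-K1 (3.04 ± 0.08) and H2-D1 (2.49 ± 0.07) were among the most abundant of them in BAT, where the invariant chain gene Cd74 rose by 2.79 ± 0.12.

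Genes that respond chiefly to type I interferon had larger median changes than the GTPases in both depots. All 24 such targets tested were higher in FANKO BAT and in FANKO eWAT, with median log2 fold changes of 6.32 and 2.58 beside 3.58 and 1.19 for the 10 GTPases and 9.7e-05 and -0.025 for all genes. Rsad2, an antiviral radical SAM enzyme, rose by 5.25 ± 0.23 in BAT and 3.37 ± 0.21 in eWAT, and Ifit1, which binds foreign RNA, by 6.95 ± 0.26 and 3.58 ± 0.22. Ifit2 and Ifit3 rose by 6.48 ± 0.24 and 7.21 ± 0.27 in BAT. Of the 6 receptor and signalling genes of that pathway, Irf7 (6.70 ± 0.20) and Stat2 (2.96 ± 0.10) rose in BAT, Tyk2 rose by 1.01 ± 0.05, Irf3 fell by 0.29 on the log2 scale, and the receptor genes Ifnar1 and Ifnar2 did not pass (0.017 ± 0.040 and -0.027 ± 0.053). In eWAT Irf7 (3.21 ± 0.17), Stat2 (0.91 ± 0.09) and Ifnar2 (0.54 ± 0.05) rose, and Irf3, Ifnar1 and Tyk2 did not pass. In FANKO eWAT all 24 targets were called rhythmic, against 6.77% of all genes. The count was 19 without replicate 1 and 14 without replicate 3, where calls over all genes fell from 1370 to 701 and 664. None of the 24 was called in WT eWAT (9.38% of all genes). The difference in rhythm between genotypes in eWAT was called for 5 of the 24 (1.15% of all genes). In FANKO eWAT the summed level of the 24 targets, like that of the GTPases, was lowest at ZT 18, at a median of 472 CPM against 1589 CPM at ZT 6. The lists were compared by their values alone.

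The depots held more than adipocytes, and several lists of markers for blood-derived cells moved with the GTPases, in BAT more than in eWAT. Bulk RNA cannot tell more cells of a type from more RNA per cell. All 15 T cell and NK cell markers were higher in FANKO BAT, where their summed level was 102 to 279 CPM against 1.83 to 7.07 CPM in WT BAT. In eWAT 14 of the 15 were higher, at 20.6 to 71.1 CPM against 7.02 to 21.3 CPM. Cd4, Lck, Nkg7 and Cd3g, the most abundant of them, rose by log2 values of 5.19, 5.22, 5.34 and 5.30 in BAT. In WT BAT Gzma, Gzmb and Cd8b1 were at 0 counts in 5 of 16 samples each.

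Of the 12 macrophage markers, 11 were higher and Cd14 lower in FANKO BAT, with summed levels of 801 to 1907 CPM against 141 to 256 CPM in WT. In eWAT the sums overlapped widely, at 790 to 1469 CPM in FANKO and 795 to 1162 CPM in WT, and 5 of the 12 were higher, 2 lower and 5 not called. The median log2 fold change of the list in eWAT was 0.15. Its values there ran from -0.69 ± 0.10 for Mertk to 2.10 ± 0.17 for Fcgr1, an Fc receptor gene, with the abundant Lyz2 and C1qa at -0.028 ± 0.108 and 0.41 ± 0.11. At ZT 18, when the GTPases were lowest in FANKO eWAT, the summed macrophage markers had a median of 995 CPM, against 1091 CPM at ZT 6, and the T and NK cell markers one of 24.5 CPM against 33.5 CPM.

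Dendritic cell markers were higher for 5 of 6 genes in each depot, the sixth, Zbtb46, being lower in BAT and not called in eWAT, with sums of 74.4 to 159 CPM in FANKO BAT against 31.9 to 46.0 CPM in WT, and 41.6 to 67.4 CPM against 33.4 to 46.5 CPM in eWAT. B cell markers rose in FANKO BAT (5 of 5, sums of 9.41 to 74.1 CPM against 0.61 to 5.47 CPM) and 4 of 5 fell in FANKO eWAT (4.996 to 11.01 CPM against 6.06 to 51.5 CPM). Of the 3 neutrophil markers tested, 2 rose in each depot, with sums no higher than 23.1 CPM in any sample. Endothelial markers fell for 5 of 6 genes in BAT (sums of 316 to 480 CPM against 455 to 651 CPM) and for Tek in eWAT. Stromal progenitor markers rose for 5 of 6 genes in BAT and fell for 5 of 6 in eWAT.

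The adipocyte markers, which define the tissue, were abundant throughout. In BAT 7 of 7 fell, their sum going from 11663 to 15371 CPM in WT to 5277 to 9325 CPM in FANKO, and 3 of 6 brown adipocyte markers fell (Ucp1, Cidea and Cox8b). In eWAT 2 brown adipocyte markers rose (Cidea and Cox8b) and Dio2 fell, with sums of 49.0 to 106 CPM in FANKO against 12.2 to 36.7 CPM in WT. In eWAT 4 adipocyte markers fell and 2 rose, with overlapping sums, and Lep fell. Skeletal muscle markers summed to at most 421 CPM in any BAT sample and none of the 6 was called in BAT. Their sum there had a median of 33.5 CPM in WT (0.53 to 421) and 4.42 CPM in FANKO (2.64 to 376). In eWAT Acta1 was called higher (1 of 6), and the sum had a median of 16.4 CPM in WT and 52.0 CPM in FANKO. In FANKO eWAT that sum was also lowest at ZT 18, at a median of 34.7 CPM against 68.2 CPM at ZT 6. Epididymis markers stayed at or below 30.6 CPM in any eWAT sample and none of the 4 tested was called. The part of any of these cell types in the GTPase levels was not tested.

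**Figure D5:**
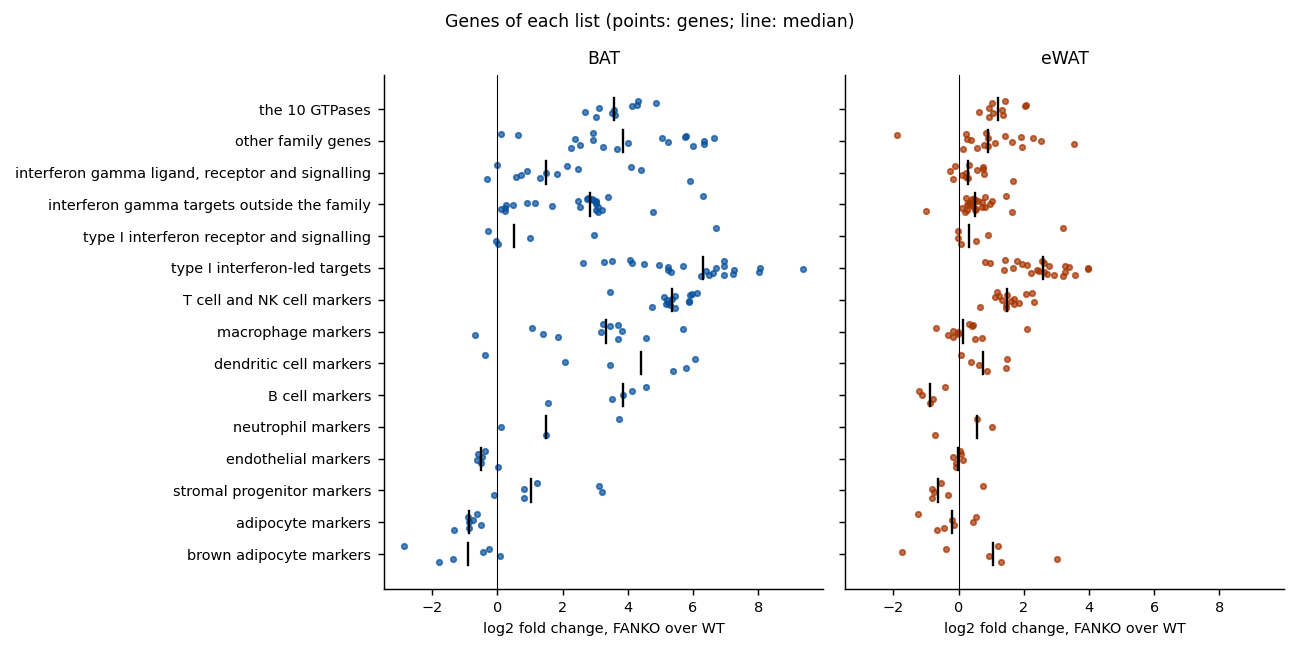
Log2 fold change, FANKO over WT, of each gene in 15 lists (points), with a line at the median of each list, in BAT (left, blue) and eWAT (right, orange). The 10 GTPases have medians of 3.58 and 1.19, type I interferon-led targets 6.32 and 2.58, T cell and NK cell markers 5.34 and 1.47, and macrophage markers 3.34 and 0.15.

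Within groups the 10 genes varied together from sample to sample. With the mean of each of the 16 groups taken off, Pearson's r between members over the 64 samples ran from 0.54 (Gbp5 and Iigp1) to 0.88 (Gbp2 and Gbp3), with a median of 0.74 over 45 pairs. Among the 10 other genes most like their mean, out of 20239, were Gbp9, Irf9, Xaf1, Rtp4, Rnf213, Gbp6, Cmpk2, Ifit2 and Samd9l, with r from 0.85 to 0.89 and Spearman's rho from 0.81 to 0.89. All of these points share their libraries and scaling, and the values describe likeness only. Several members share exon or transcript sequence, as given above, which also ties their counts.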

How the data were processed

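The authors sequenced ribosome-depleted, strand-specific libraries and, per the labels and their methods, aligned reads with STAR 2.5.3a to GRCm38.p5 and deposited raw counts per gene from featureCounts 1.5.3. Whether strand or multi-mapped reads were used in counting is not given in the sources used here. All 64 columns were matched to samples by label. Genes were named with GENCODE (52489 of 52636 identifiers matched).

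Counts were filtered with filterByExpr over the 16 groups (minimum count 10; 20249 genes kept) and scaled by TMM in edgeR 4.0.16. The cosine model fitted a mean and a 24 h wave per depot and genotype, and a second fit used the 16 groups for single time points. Calls used the quasi-likelihood test at a Benjamini-Hochberg adjusted p below 0.01 over all genes. CPM are counts per 1000000 on the TMM scale, log2 CPM used a prior count of 2, and SEs were derived from the fitted change and its F value. The model was tested on simulated data. DESeq2 1.42.0, limma 3.58.1 (voom), other scalings and filters, a replicate block and omission of each replicate number were alternatives. Words of 38 bases were compared across GENCODE transcripts. R 4.3.3 and Python 3.11.15 were used.

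Samples with the same number in the other depot (same genotype and time) had correlated deviations (r over 0.1) in 10 of 32 pairs, against 5 of 96 pairs with other numbers (medians 0.053 and -0.021). Since not every pair passed and the labels name no shared animal, the main fit had no block, and fits with one were alternatives. The p-values of the main fit between depots take the samples as independent, which these pairs do not establish. Nothing in the labels says which samples came from separate animals, so p-values measure the spread between these samples, which may be technical. Intervals and errors cover that spread and counting error only.

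The members, gene lists and tests were chosen with earlier results of these data known. Named genes were the 10 members, up to 4 genes per list by highest mean level, and the 10 genes most like the members. Ifng, Ifngr2, Irf1, Irf8, Socs1, Tyk2, Irf3, Cxcl11 and genes that were exceptions to a count were named for their role after their values were seen. The Iigp1 promoter was not used here. A gene that these rules would name is not reported here.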

Additional observations from a re-analysis of the deposited data

Results flagged for a closer look

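The effect of genotype differed between the depots for each of the 10 GTPases when the difference itself was tested (edgeR, largest adjusted p 1.15e-11). The log2 effect in BAT minus that in eWAT was 2.09 for Gbp2, 2.22 for Gbp3, 2.45 for Gbp5 and 2.08 for Gbp7. For the regulatory IRGs it was 2.24 for Irgm1, 2.19 for Irgm2 and 2.10 for Igtp, and for the effectors 2.24 for Iigp1, 3.86 for Tgtp1 and 2.89 for Tgtp2.

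Of 160 groups of 4 samples, one group per member, depot, genotype and time point, 11 held a sample apart from the rest by Dixon's criterion. Chance gives about 1 in 20 such groups. In FANKO BAT at ZT 22, replicate 3 was low for 3 genes, with Gbp2 at 227 CPM (others 352 to 370), Igtp at 287 CPM (443 to 469) and Tgtp1 at 26.8 CPM (58.3 to 65.9). That sample also had the highest mitochondrial share of FANKO BAT, 24.7%, whose part was not tested. In FANKO eWAT at ZT 6, replicate 3 was high for Gbp3 at 158 CPM (others 77.8 to 83.1) and Gbp5 at 45.3 CPM (23.5 to 25.8). In WT BAT, Iigp1 stood at 75.5 CPM in replicate 4 of ZT 10 (others 17.0 to 18.5), Gbp3 at 14.9 CPM in replicate 4 of ZT 18 (24.5 to 27.0) and Tgtp1 at 2.42 CPM in replicate 2 of ZT 22 (1.19 to 1.34). In WT eWAT, Gbp2 stood at 48.4 CPM in replicate 2 of ZT 6 (others 68.2 to 71.2). Tgtp2 stood at 4.98 CPM in replicate 4 of ZT 6 (2.59 to 2.68) and at 3.02 CPM in replicate 3 of ZT 22 (3.50 to 3.57) in the same depot.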

How the results depend on the processing

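The genotype effect in BAT, in eWAT, its difference between depots, and the FANKO depot difference were called for 10 of 10 GTPases under all alternatives run. Of the other counts of called members, those that moved by more than 1.5 times are given here, and the cause was not tested. Smaller moves included 6 between the WT depots by DESeq2 and, for FANKO eWAT rhythm, 7 by limma-voom and 8 at an adjusted p below 0.05. At an adjusted p below 0.05, in place of 0.01, the count rose from 4 to 7 between the WT depots, from 0 to 2 for rhythm in WT BAT, from 2 to 5 for rhythm in FANKO BAT, from 0 to 1 for the rhythm difference in BAT, and from 1 to 3 for eWAT at ZT 18. With library size alone the counts were 9 between the WT depots, 0 for rhythm in FANKO BAT, 4 for eWAT at ZT 10 and 0 for eWAT at ZT 18, and the WT depot difference of Igtp turned from 0.46 to -0.28 on the log2 scale. DESeq2 called 1 rhythm in WT BAT. For rhythm in FANKO BAT limma-voom called 5, and time point as a factor called 1. Leaving out each replicate number in turn gave 0 to 1 for rhythm in WT BAT, 0 to 2 in FANKO BAT, 1 to 8 in FANKO eWAT, 0 to 5 for the rhythm difference in eWAT, 4 to 7 for eWAT at ZT 10 and 0 to 1 at ZT 18. Over all genes, rhythm calls in FANKO eWAT ran from 633 to 1065 in those fits, against 1370 with all samples. Without the WT BAT sample of ZT 10, replicate 4, an alternative chosen after seeing the data, 3 members were rhythmic in FANKO BAT and 2 were called in eWAT at ZT 18 (Iigp1 and Tgtp2). The replicate block gave each replicate number an effect shared by both depots and genotypes. It changed no count (10 in BAT, 10 in eWAT, 2 for rhythm in FANKO BAT and 6 in FANKO eWAT). Same-numbered samples of the 2 genotypes correlated over 0.1 in 6 of 32 pairs. At ZT 10, 18 and 22 the mitochondrial share was highest in replicate 3 in BAT and in replicate 4 in eWAT, in both genotypes. This did not hold at ZT 6 outside WT eWAT. At ZT 22 these shares were 40.7% (WT BAT), 24.7% (FANKO BAT), 10.6% (WT eWAT) and 14.3% (FANKO eWAT). A block shared by both depots cannot take up an effect of the number that differs between depots, and no such block by depot was run. Blocking on genotype, time and number across depots gave 5 between the WT depots and left 10 in FANKO and in the difference. Of the members' log2 values in the 5 comparisons of mean level under the alternatives, 731 kept their direction and call, 15 gained a call, 3 lost one and 1 reversed. With 4 samples a group, Tgtp1 at 6 to 43 counts per WT BAT sample had the fewest counts of the members.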
